A study of Homo sapiens with 8 samples.

Results

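TNFSF10 encodes TRAIL, a ligand of the tumour necrosis factor superfamily, and it was examined here together with the genes through which TRAIL and the related FAS ligand signal. The 10 genes comprised the ligand, the death receptors TNFRSF10A, TNFRSF10B and FAS, the decoy receptors TNFRSF10C, TNFRSF10D and TNFRSF11B, the adaptor FADD, the initiator caspase CASP8 and its inhibitor CFLAR. They were taken by gene symbol from the platform annotation, and 9 of the 10 had a row among the 17492 genes of the table. TNFRSF10C was not analysed here. The set was chosen by the log2 difference of TNFSF10 between doxycycline and vehicle tumours, which was among the largest rises, and by the pathway around it, so the rise of TNFSF10 is described below without a test.

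TRAIL is a trimeric membrane ligand that can be shed, and its binding to TNFRSF10A (DR4) or TNFRSF10B (DR5) clusters the death domains inside the cell. The adaptor FADD is then recruited and in turn gathers procaspase 8, which activates itself and cleaves the executioner caspases and BID. CFLAR, or c-FLIP, is a relative of caspase 8 without protease activity that joins the same complex and can block it, and decoy receptors bind TRAIL without a working death domain. TNFSF10 is also known as an interferon-induced gene.

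The tumours were SkMel147 melanomas, an established human cell line, grown subcutaneously in BALB/c nude mice, which lack mature T cells but keep natural killer cells and macrophages. When tumours reached 100 mm3 the mice received doxycycline in their drinking water, which induces Omomyc in the tumour cells, or the vehicle, and tumours were taken after 7 days. Omomyc is a dominant-negative fragment of MYC that competes with it for partners and DNA sites. Each group had 4 tumours, described as biological replicates, with 1 human Affymetrix array per tumour. The sources used here do not give the age and sex of the mice, the promoter that drives Omomyc or whether the line is a single clone. Tumours given doxycycline without the transgene were not analysed here, so the drug and Omomyc cannot be told apart.

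Values are log2 signals made by robust multi-array averaging (RMA), so a difference of 1 is a doubling. Array medians lay between 5.02 and 5.13, and no 2 arrays were identical. On the second principal component (16.0% of the variance) vehicle replicate 2 and doxycycline replicate 4 lay away from the rest of their groups, and on the third (12.3%) doxycycline replicate 1 did. MYC, whose probes may also read the transgene, was at 5.92, 5.42, 5.92 and 5.26 in vehicle and at 5.49, 7.22, 7.74 and 6.78 in doxycycline tumours, and doxycycline replicate 1 lay within the vehicle range. Of 7 measured melanocyte lineage markers, SOX10 (6.53 in vehicle) and MITF (5.22) were the brightest, and the pigment genes PMEL, MLANA, TYRP1 and TYR averaged 3.26, 2.93, 2.42 and 2.21, near or below the arrays' lower quartiles of 3.03 to 3.23. The data are of whole tumours, in which fewer cells of a type and less RNA per cell cannot be told apart. The array's probes are human, and mouse RNA is read only where it cross-hybridises.

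TNFSF10 was at 5.36, 8.09, 5.86 and 7.08 in the vehicle tumours (replicates 1 to 4) and at 10.28, 10.13, 10.28 and 9.62 in the doxycycline tumours. All doxycycline tumours lay above all vehicle tumours. The vehicle tumours spread over a range of 5.36 to 8.09, while the doxycycline tumours stayed between 9.62 and 10.28. The mean went from 6.60 ± 1.23 to 10.08 ± 0.31 (SD, n = 4), a log2 difference of 3.48 ± 0.50 (SE) or 11.1-fold, which ranked 5 from the top of 17492 genes. When 1 tumour at a time was left out, this difference ran from 3.06 (vehicle replicate 1 removed) to 3.98 (vehicle replicate 2 removed), and it was 4.13 without vehicle replicate 2 and doxycycline replicate 4 together, which as a fold is more than 1.5 times the value with all tumours.

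**Figure D1:**
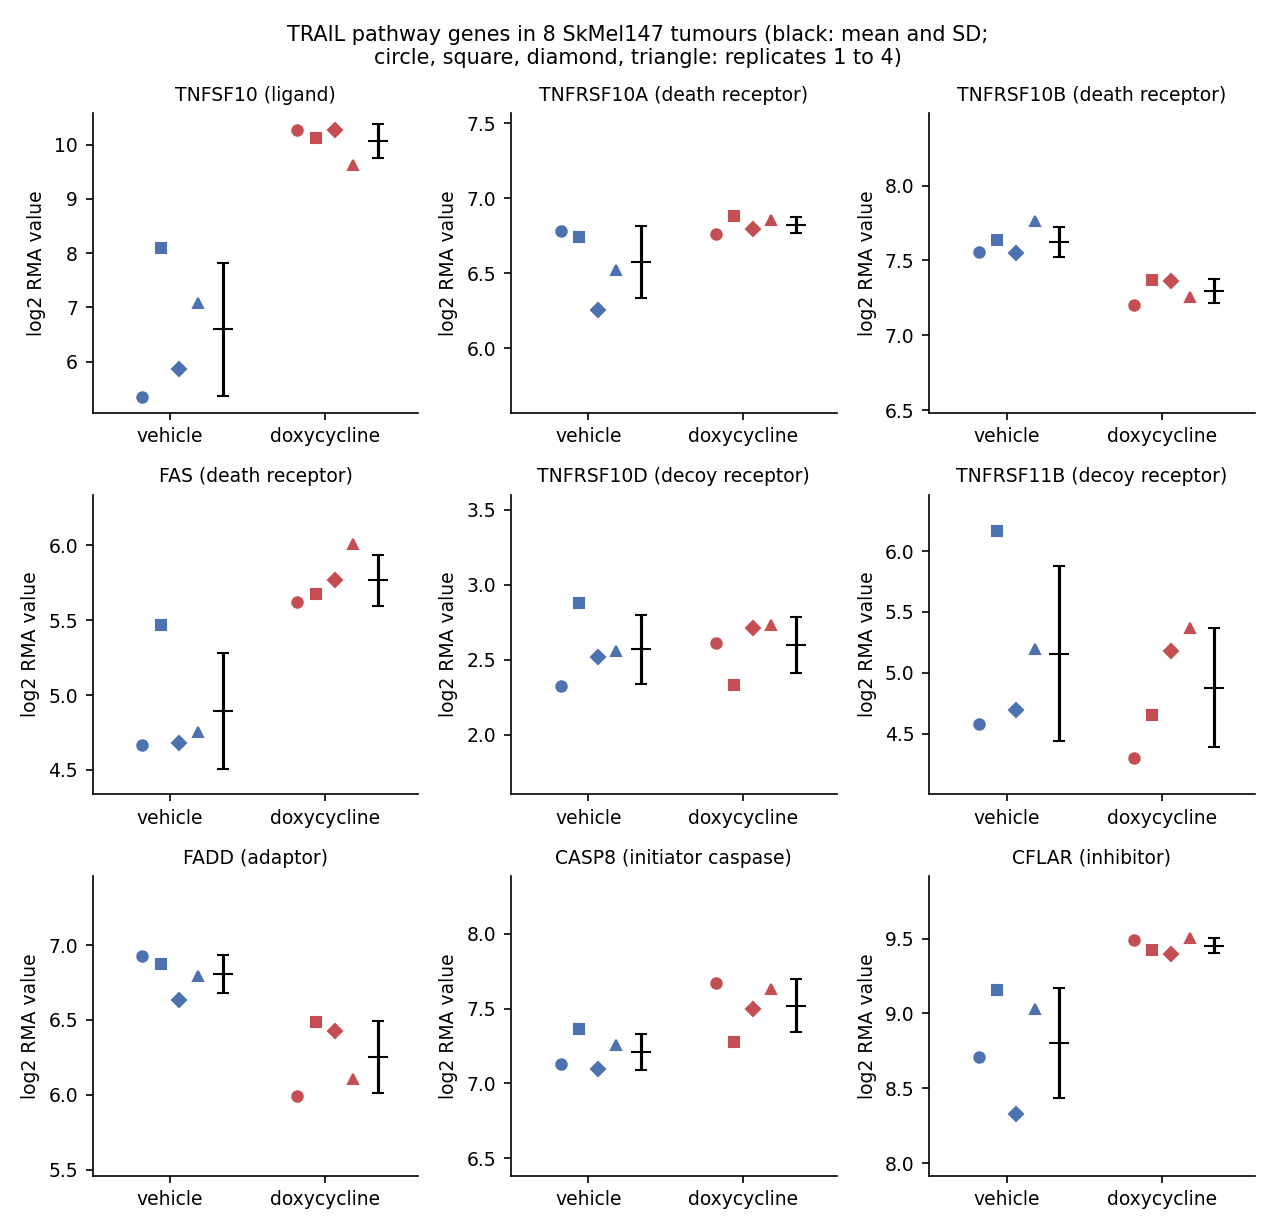
Log2 RMA values (vertical axes, scaled per gene) of the 9 measured genes in 4 vehicle (blue) and 4 doxycycline (red) tumours. Marker shapes are replicates 1 to 4, and black marks are the group mean and SD. TNFSF10 rises from between 5.36 and 8.09 to between 9.62 and 10.28, while the receptors, FADD, CASP8 and CFLAR move by less than 1 log2 unit on average.

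The 5 genes whose profile over the 8 tumours lay closest to that of TNFSF10 were IFIT2, IFI6, IFIT1, RSAD2 and SAMD9L, all known as interferon-induced genes. Likeness was measured as the root mean square difference between the 2 genes' log2 values, each centred on its own mean over the 8 tumours, and was 0.24, 0.33, 0.42, 0.42 and 0.44. This measure includes the group difference for which TNFSF10 was chosen. IFIT2, an RNA-binding antiviral protein, was at 5.25, 7.76, 5.55 and 6.80 in vehicle tumours and at 9.94, 9.45, 9.76 and 8.72 in doxycycline tumours. As for TNFSF10, the vehicle tumours with the highest IFIT2 were replicates 2 and 4, and the doxycycline tumour with the lowest was replicate 4. IFI6, a small mitochondrial membrane protein, was at 7.47, 10.58, 8.14 and 9.53 in vehicle and at 11.99, 11.84, 12.44 and 11.19 in doxycycline tumours, with the same vehicle tumours high.

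Because these genes moved together, the promoters in RefSeq (GRCh38.p14) were searched for the core of the interferon-stimulated response element, a pair of GAAA half-sites in the same orientation with 2 bases of any kind between them, on both strands, in the 300 bases from 250 before to 50 after each annotated start. Capitals mark matches in the bases shown, which end at the base before the start.
TNFSF10 (chr3:172523431-172523680, minus strand): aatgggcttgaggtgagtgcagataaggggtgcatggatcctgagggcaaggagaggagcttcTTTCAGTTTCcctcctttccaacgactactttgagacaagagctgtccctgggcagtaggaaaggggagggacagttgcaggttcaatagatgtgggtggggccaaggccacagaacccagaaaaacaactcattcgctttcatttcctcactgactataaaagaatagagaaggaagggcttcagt
IFIT1 (chr10:89392463-89392622, plus strand): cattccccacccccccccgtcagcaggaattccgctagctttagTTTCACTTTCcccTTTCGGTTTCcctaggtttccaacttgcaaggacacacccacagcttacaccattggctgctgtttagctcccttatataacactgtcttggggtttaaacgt
RSAD2 (chr2:6877617-6877776, plus strand): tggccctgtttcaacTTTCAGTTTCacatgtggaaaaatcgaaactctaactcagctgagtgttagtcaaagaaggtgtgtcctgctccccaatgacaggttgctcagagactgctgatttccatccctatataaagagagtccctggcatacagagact
IFI6 (chr1:27672193-27672352, minus strand): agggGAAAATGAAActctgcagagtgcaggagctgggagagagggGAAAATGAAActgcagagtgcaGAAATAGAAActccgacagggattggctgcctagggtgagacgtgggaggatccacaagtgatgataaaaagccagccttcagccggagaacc

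TNFSF10 held the core once, as TTTCAGTTTC on the reverse strand from -187 to -178 relative to the start, and RSAD2 held the same 10 letters from -145 to -136. IFIT1 held 2 matches and IFI6 held 3. The core was present in 3.58% of 35097 promoter entries. Of the members, 5 genes had entries, 12 in all, and 2 entries held the core. The other was 1 of 3 entries of CASP8, with a match that spans its start, while the 3 entries of FAS, 1 of FADD and 4 of CFLAR held none. The 4 similar genes with entries had 5 entries, of which 3 held the core. RSAD2 held it in 1 of its 2 entries, the 1 entry of SAMD9L did not hold it, and IFIT2, the most similar gene, had no entry. Among the members' 12 entries, 7 held a GC box GGGCGG (44.9% of all), and none held the E-box CACGTG (7.25% of all) or the forkhead site GTAAACA (3.42% of all). These matches describe letters in a window and are not measured binding sites. TNFSF10 was chosen for its rise and the similar genes for their likeness to it, so nothing is read from these counts against the shares.

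Markers of other cell types were read beside TNFSF10, since natural killer cells and macrophages can make TRAIL. For comparison, 1884 of all 17492 genes passed limma and 4172 had an unadjusted p under 0.05. The mean of 9 natural killer and T cell markers was 2.75 to 3.21 in vehicle and 2.61 to 3.19 in doxycycline tumours, and none passed limma, with 0 at an unadjusted p under 0.05. The brightest were NKG7 (5.34 in vehicle and 4.98 in doxycycline) and GZMB (5.14 and 5.24), cytotoxic granule genes. The mean of 10 macrophage and dendritic cell markers was 4.36 to 4.54 in vehicle and 4.68 to 5.18 in doxycycline tumours, although no member passed limma over all genes and 4 had an unadjusted p under 0.05. CD74 and CD68, its brightest genes, differed by 0.33 ± 0.22 and 0.83 ± 0.31 (SE), with limma adjusted p of 0.405 and 0.128. The list was not uniform. CD163 and ITGAX were lower with doxycycline (-0.47 and -0.30), and its other genes were higher, by up to 1.82 for CD14 (limma adjusted p = 0.0507). The mean of 7 fibroblast markers was 5.32 to 6.32 in vehicle and 6.68 to 7.74 in doxycycline tumours, and COL1A1, COL1A2 and PDGFRA rose by 1.25, 0.92 and 2.51. LUM, the brightest of that list, differed by 1.59 ± 0.51 (SE; limma adjusted p = 0.0747). COL1A2 lost its call when either replicate 3 was left out (adjusted p of 0.0564 for vehicle and 0.0509 for doxycycline), and PDGFRA when vehicle replicate 1 was (0.0520). Both lost it without vehicle replicate 2 and doxycycline replicate 4 together (0.0869 and 0.0735). Of 8 endothelial markers, with TIE1 and PECAM1 the brightest, none passed limma and 1 had an unadjusted p under 0.05. In these tumours grown in mice, such cells would be mouse cells, whose RNA the human probes read only where it cross-hybridises. The marker lists are therefore not measures of these cells, and which cells gave the signals is unknown. The part of these cells in the difference of TNFSF10 was not tested.

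Of the other 8 measured genes of the set, FAS rose and the other 7 did not pass the test. The comparison asks what Omomyc induction changes in the transcripts of melanomas growing in mice. It was made with limma across all 17492 genes, with a Benjamini-Hochberg adjusted p under 0.05. Of all genes, 10.8% passed, 4.75% as rises and 6.03% as falls, so falls made up 55.9% of the calls, or 28.0% after each array was centred on its ribosomal protein genes. Leaving out vehicle replicate 3 reduced the genes passing from 1884 to 1252, or by more than 1.5 times. Without regard to the test, the groups did not overlap for 4 of the 8 genes, with FAS and CFLAR higher and TNFRSF10B and FADD lower in doxycycline tumours. Of all genes, 17.7% did not overlap, 8.86% with doxycycline above and 8.83% with doxycycline below. The set was chosen with this contrast in view, so nothing is read from its counts against these shares.

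**Figure D2:**
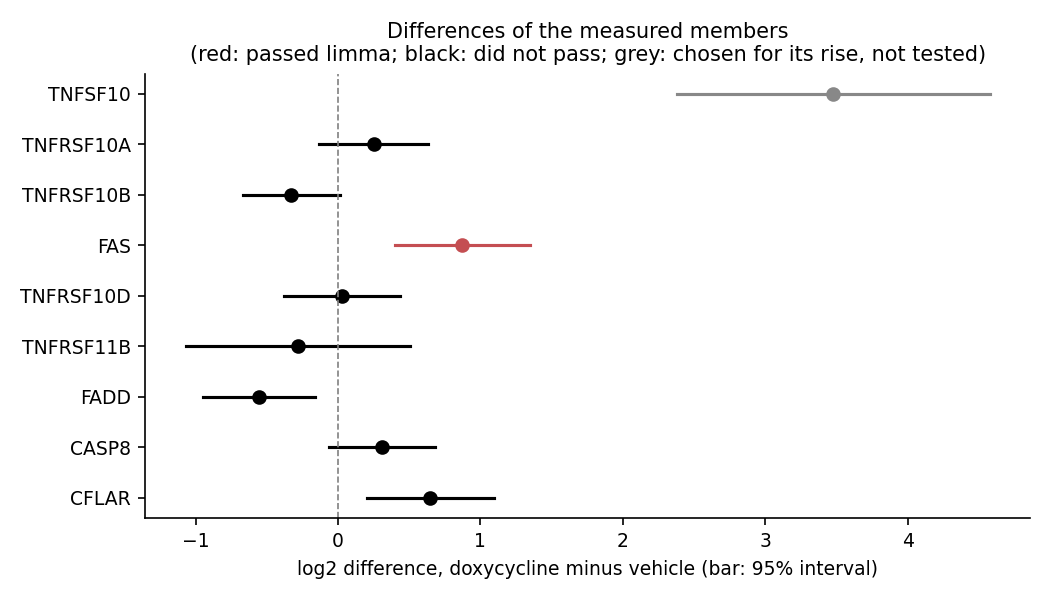
Log2 difference, doxycycline minus vehicle (horizontal axis), with limma's 95% interval for the 9 measured genes. FAS (red) passed at 0.87, the 7 genes in black did not pass, and TNFSF10 (grey, 3.48) was chosen for its rise and not tested. The interval drawn for TNFSF10 takes no account of that choice and is not to be read as a test.

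FAS, the death receptor for FAS ligand, was at 4.67, 5.47, 4.68 and 4.76 in vehicle and at 5.62, 5.68, 5.77 and 6.01 in doxycycline tumours. Vehicle replicate 2 lay apart from the other vehicle tumours and next to the lowest doxycycline tumour, and the groups did not overlap. The mean rose from 4.89 ± 0.38 to 5.77 ± 0.17 (SD, n = 4), by 0.87 ± 0.22 (SE) or 1.83-fold (limma adjusted p = 0.0258). Without vehicle replicate 2 the difference was 1.06 (adjusted p = 0.00422). The call was lost without vehicle replicate 1, 3 or 4 (adjusted p of 0.0798, 0.0791 and 0.0692), without doxycycline replicate 2, 3 or 4 (0.0539, 0.0595 and 0.0654) and under the replicate block (0.0641), at differences of 0.79 to 0.90. Its ligand gene FASLG averaged 2.06 ± 0.13 with vehicle and 2.10 ± 0.07 with doxycycline (SD, n = 4), below the lower quartile of the arrays.

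TNFRSF10A, the receptor DR4, was at 6.78, 6.74, 6.25 and 6.52 in vehicle and at 6.76, 6.88, 6.80 and 6.86 in doxycycline tumours, so the groups overlapped. The difference was 0.25 ± 0.17 (SE; limma adjusted p = 0.437), with a 95% interval of -0.13 to 0.63. TNFRSF10B, the receptor DR5, was at 7.56, 7.64, 7.55 and 7.76 in vehicle and at 7.20, 7.37, 7.36 and 7.26 in doxycycline tumours. Every doxycycline tumour lay below every vehicle tumour, by a small amount. The difference of -0.33 ± 0.15 (SE) did not pass over all genes (limma adjusted p = 0.229) and had an interval of -0.67 to 0.01. It shrank to -0.10 after each array was centred on its ribosomal protein genes, a scaling that moved the median of all genes from 0.04 to 0.27.

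The decoy receptors TNFRSF10D and TNFRSF11B did not pass. TNFRSF10D, whose death domain is truncated, was at 2.33, 2.88, 2.52 and 2.56 in vehicle and at 2.61, 2.33, 2.72 and 2.73 in doxycycline tumours, below the lower quartile in every tumour. The difference of 0.03 ± 0.18 (SE; limma adjusted p = 0.949) had an interval of -0.38 to 0.43, and how far the signal lay above background is unknown. TNFRSF11B, or osteoprotegerin, is a secreted decoy that also binds RANKL. It was at 4.58, 6.16, 4.70 and 5.19 in vehicle and at 4.30, 4.65, 5.18 and 5.37 in doxycycline tumours. The groups overlapped widely, vehicle replicate 2 was the highest of all 8 tumours, and the difference was -0.28 ± 0.36 (SE; limma adjusted p = 0.706) with an interval of -1.07 to 0.51. Without vehicle replicate 2 it turned to 0.054.

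FADD, the adaptor that joins receptors to caspase 8, was at 6.93, 6.87, 6.63 and 6.80 in vehicle and at 5.99, 6.48, 6.42 and 6.11 in doxycycline tumours. The groups did not overlap, and doxycycline replicates 1 and 4 were the lowest. The difference of -0.56 ± 0.18 (SE), or 1.47-fold lower, did not pass over all genes (limma adjusted p = 0.0771, and 0.0369 to 0.290 over the alternatives). It passed only without the dimmest 40% of genes, among the 17 alternatives run.

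CASP8 was at 7.13, 7.36, 7.10 and 7.26 in vehicle and at 7.67, 7.28, 7.50 and 7.63 in doxycycline tumours. Doxycycline replicate 2 lay within the vehicle range and the other 3 above it. The difference of 0.31 ± 0.17 (SE; limma adjusted p = 0.301) had an interval of -0.06 to 0.68. CFLAR, the inhibitor, was at 8.71, 9.15, 8.33 and 9.03 in vehicle and at 9.49, 9.42, 9.40 and 9.50 in doxycycline tumours. The doxycycline tumours were all higher and lay within 9.40 to 9.50, while the vehicle tumours spread from 8.33 to 9.15. The difference of 0.65 ± 0.20 (SE), or 1.57-fold, did not pass over all genes (limma adjusted p = 0.0697). It passed without vehicle replicate 2 (0.0393), without the dimmest genes (0.0359), under a robust trended variance prior (0.0161), under array weights (0.0383) and after centring on ribosomal proteins (0.0222), and the adjusted p reached 0.165 without vehicle replicate 3. The row of CFLAR does not separate its long and short protein isoforms.

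A constant shift of an array cancels in the difference between a pair of members within it, and 3 such pairs were compared. The level of one gene's probes cannot be set against another's, so only the change of such a difference between groups is read. TNFRSF10B minus TNFRSF10A was 0.77, 0.90, 1.29 and 1.24 in vehicle and 0.44, 0.49, 0.57 and 0.40 in doxycycline tumours, with no overlap. It fell by 0.58 ± 0.13 (SE, n = 4 per group; exact two-sided permutation p = 0.0286, adjusted over the 3 pairs p = 0.0429). Taken singly, neither of these 2 TRAIL death receptors passed limma (adjusted p of 0.229 and 0.437). CASP8 minus CFLAR was -1.58, -1.79, -1.24 and -1.77 in vehicle and -1.82, -2.14, -1.90 and -1.87 in doxycycline tumours. It fell by 0.34 ± 0.15 (SE, n = 4 per group; exact p = 0.0286, adjusted p = 0.0429), with only a narrow gap between vehicle replicate 2 and doxycycline replicate 1. TNFRSF10B minus TNFRSF10D was between 4.76 and 5.23 in vehicle and between 4.52 and 5.04 in doxycycline tumours, and its change of -0.36 ± 0.16 (SE, n = 4 per group) did not pass (exact p = 0.0857, adjusted p = 0.0857). An exact p of 0.0286 is the smallest that 4 against 4 tumours can give, and any pair whose groups do not overlap reaches it. Of single genes, 17.7% did not overlap, and how many other pairs of genes do not was not counted. The 3 pairs were formed with earlier results of these data known, so their p-values are not read as evidence particular to these genes. With quantile normalization on top, the adjusted exact p of the first pair and of CASP8 minus CFLAR was 0.0571.

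**Figure D3:**
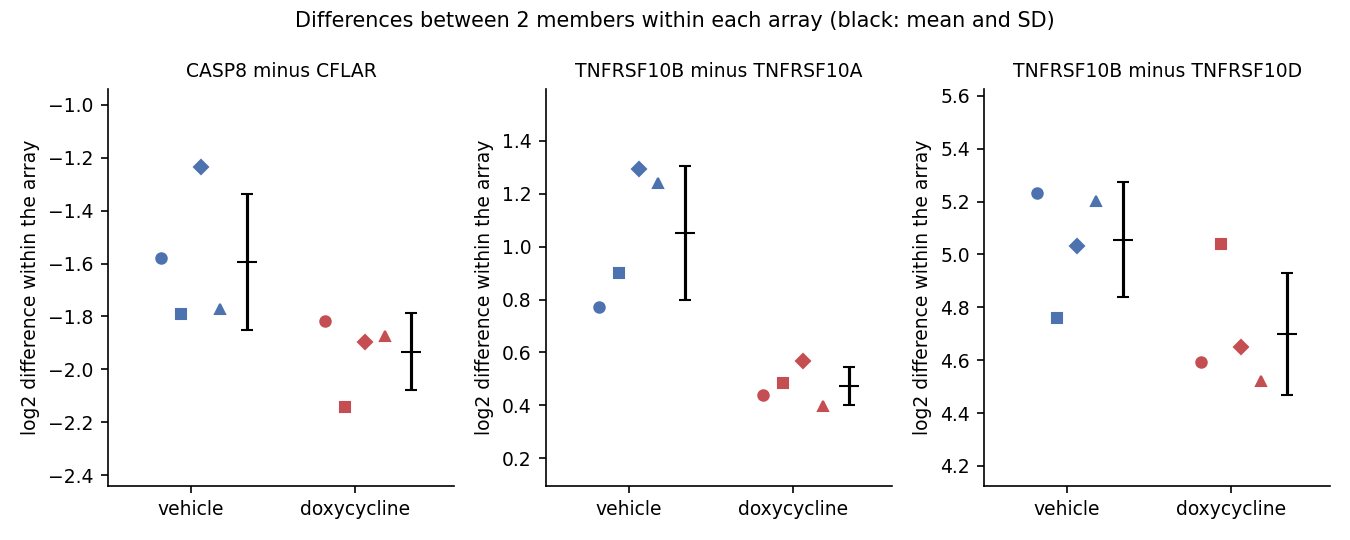
Log2 difference between 2 genes within each array (vertical axes) in 4 vehicle (blue) and 4 doxycycline (red) tumours, with group mean and SD in black and marker shapes for replicates 1 to 4. TNFRSF10B minus TNFRSF10A and CASP8 minus CFLAR are lower in every doxycycline tumour than in every vehicle tumour, and TNFRSF10B minus TNFRSF10D overlaps.

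Around these genes, the other ligands and receptors of the superfamily were mostly without a call. Over all genes 4.75% rose and 6.03% fell, and nothing is read from the counts of the lists against these shares. Of 15 measured other ligands, 2 rose and none fell, with a median log2 difference of 0.15, against 0.04 for all genes. TNFSF4 (OX40 ligand) rose by 1.03 ± 0.24 and TNFSF12 (TWEAK) rose by 0.92 ± 0.22 (SE; limma adjusted p of 0.0195 and 0.0209). Their vehicle means of 2.98 and 3.42 lay near the arrays' lower quartiles of 3.03 to 3.23. The filter on dim genes left both out. Of 20 other receptors, 2 rose and none fell, with a median of 0.22. NGFR, the low-affinity neurotrophin receptor and a marker of neural crest-like melanoma cells, rose by 2.06 ± 0.53 (SE; limma adjusted p = 0.0310). It was at 5.61 to 6.52 in vehicle and at 8.28, 7.95, 9.56 and 6.39 in doxycycline tumours, so doxycycline replicate 4 overlapped with vehicle. TNFRSF1A, the main receptor for tumour necrosis factor and itself a death receptor, rose by 0.75 ± 0.21 (SE; limma adjusted p = 0.0416).

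Several of those calls ended when a single tumour was left out. Leaving out 1 tumour also lowered the calls over all genes, from 1884 to between 1252 and 1760, so a lost call need not reflect that tumour. TNFSF4 lost its call without vehicle replicate 1 or 3 (adjusted p of 0.0589 and 0.0510). TNFSF12 lost it without vehicle replicate 3 or doxycycline replicate 1 or 3 (0.0565, 0.0510 and 0.0509). NGFR lost it without vehicle replicate 1, 3 or 4 (0.0881, 0.0807 and 0.0680) and without doxycycline replicate 1, 2 or 3 (0.0687, 0.0661 and 0.0531), and under a robust trended variance prior (0.0584), and its difference was 2.61 without doxycycline replicate 4 and 2.79 without vehicle replicate 2 and doxycycline replicate 4 together. TNFRSF1A lost its call without any of the 4 vehicle tumours (0.101, 0.0562, 0.105 and 0.0884), without doxycycline replicate 2, 3 or 4 (0.0623, 0.102 and 0.0923) and under the replicate block (0.0948). When both vehicle replicate 2 and doxycycline replicate 4 were removed, calls also ended for TNFRSF1A (0.107), TNFSF4 (0.0503) and TNFSF12 (0.0576).

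**Figure D4:**
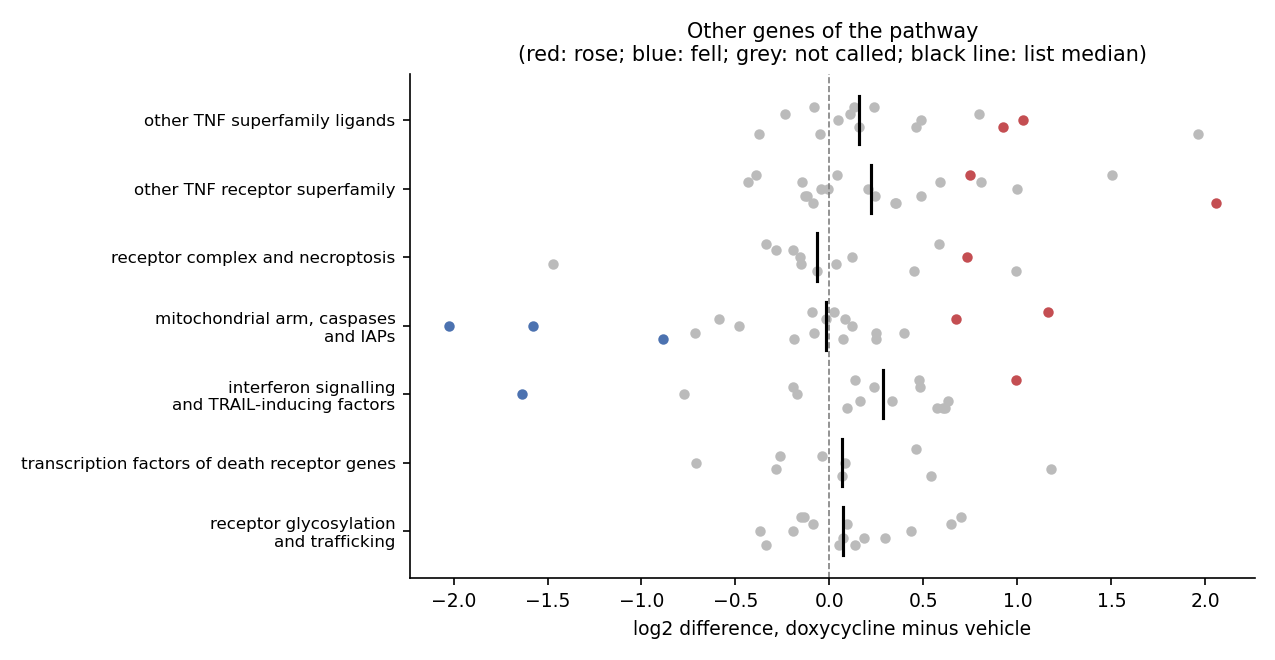
Log2 difference, doxycycline minus vehicle (horizontal axis), of each measured gene in 7 lists of the pathway, with red for genes that rose, blue for genes that fell, grey for genes without a call and a black line at the list median. The vertical offsets within a list carry no value, and the mitochondrial arm holds calls in both directions, from BIRC5 at -2.03 to BCL2L1 at 1.16.

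In the receptor complex and necroptosis list, 1 of 13 measured genes rose and none fell, beside 4.75% and 6.03% of all genes. The median of the list was -0.07. RBCK1 (HOIL-1), part of the linear ubiquitin ligase that modifies death receptor complexes, rose by 0.73 ± 0.18 (SE; limma adjusted p = 0.0254). Its call ended without vehicle replicate 1 or 3 (0.0532 and 0.0777), without doxycycline replicate 1, 2 or 3 (0.0588, 0.0653 and 0.0674) and under the replicate block (0.0845).

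Downstream of caspase 8, 2 of 19 measured genes of the mitochondrial arm, caspases and inhibitors of apoptosis rose and 3 fell, with a median of -0.02. Beside them, 4.75% of all genes rose and 6.03% fell. BCL2L1 (BCL-XL), an anti-apoptotic BCL2 protein, rose from 6.48 ± 0.19 to 7.65 ± 0.31 (SD, n = 4), by 1.16 ± 0.20 (SE; limma adjusted p = 0.00398). BID, the caspase 8 substrate that carries the signal to mitochondria, fell by 0.89 ± 0.23 (SE; limma adjusted p = 0.0319), with vehicle replicate 4 (7.76) just below doxycycline replicate 4 (7.77). BIRC5 (survivin), which also acts in mitosis, fell by 2.03 ± 0.25, and PARP1, a DNA repair enzyme cleaved in apoptosis, fell by 1.58 ± 0.37 (SE; limma adjusted p of 0.0005 and 0.0203). XIAP, an inhibitor of caspases, rose by 0.67 ± 0.17 (SE; limma adjusted p = 0.0319) and is named after its value was seen. BCL2L1 and BIRC5 kept their calls in all 17 alternatives.

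BID lost its call without vehicle replicate 1 or 3 (0.0949 and 0.0953), without doxycycline replicate 1, 2 or 3 (0.0742, 0.0767 and 0.0856), under the replicate block (0.0996) and after centring on ribosomal proteins (0.0623). PARP1 lost it without vehicle replicate 1 or 3 or doxycycline replicate 3 (0.0644, 0.0646 and 0.0567). XIAP lost it without vehicle replicate 1, 2 or 4 (0.0754, 0.0648 and 0.0893), without any of the 4 doxycycline tumours (0.0580 to 0.0797), without vehicle replicate 2 and doxycycline replicate 4 together (0.104) and under the replicate block (0.0957).

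Among 16 measured genes of interferon signalling and factors that induce TNFSF10, 1 rose and 1 fell, with a median of 0.29. The shares of all genes that rose and fell were 4.75% and 6.03%. IRF9, a DNA-binding interferon regulatory factor, was at 7.47, 8.57, 7.62 and 8.06 in vehicle and at 9.07, 8.89, 8.92 and 8.82 in doxycycline tumours. It rose by 0.99 ± 0.24 (SE; limma adjusted p = 0.0233), and the highest vehicle tumour was again replicate 2. The call ended without vehicle replicate 1 or 3 (0.0690 and 0.0743), without doxycycline replicate 1, 2 or 3 (0.0540, 0.0539 and 0.0549) and under the replicate block (0.0557). NFKB1, a subunit of NF-kB, fell by 1.64 ± 0.24 (SE; limma adjusted p = 0.00148), and its call held in all 17 alternatives. Of 9 measured transcription factors of death receptor genes and 15 genes of receptor glycosylation and trafficking, none passed limma, and both medians were 0.07. In these 2 lists, 3 and 2 genes had an unadjusted p under 0.05, as did 4172 of all 17492 genes.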

How the data were processed

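The authors deposited log2 values, and the submitters' processing notes name RMA as the method. It subtracts background, equalises the distributions of the arrays and summarises probes to 1 value per row, which partly removes a general shift of transcripts and may understate changes of dim genes. The software, its version and the probe definition are not stated in the labels. Groups and replicate numbers came from the sample titles. Of 18569 rows, 17511 had 1 gene symbol and 1058 had none and were left out. For 17 genes with several rows the brightest on average was kept. No filter or further normalization was applied.

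Doxycycline was compared with vehicle in limma 3.58.1 (R 4.3.3; lmFit, eBayes, two-sided, Benjamini-Hochberg over 17492 genes, threshold 0.05). SE and 95% intervals are limma's moderated ones, except for differences within an array, whose SE comes from the group variances. Changes within arrays were tested by exact two-sided permutation. Precision is limited by having 4 arrays in each group. The procedure was tested on simulated data, in which 200 of 17492 genes were changed. It recovered 50% of log2 changes of 1 and 91% of changes of 2, and 7.84% of its calls were false. A gene that did not pass may therefore still have changed. The simulated noise was independent between genes, and the real comparison called 1884 genes, so these rates need not hold for it. Members, from which the 3 pairs were formed, and gene lists were chosen with earlier results of these data known. Named genes were the members, up to 4 called genes with the smallest p per list, the 2 brightest of each marker list and the 5 profiles nearest TNFSF10. MYC, FASLG, XIAP and further cell type markers are named outside these rules, with results of these data known. The alternatives were 3 scalings, a filter on dim genes, a variance prior, array weights, a replicate block, the mean of a gene's rows, and leaving out arrays. Promoters came from RefSeq (GRCh38.p14), and 1 motif searched in them is not reported here. A comparison of protein sequences was planned and not run. Figures were drawn with matplotlib 3.10.9.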

Additional observations from a re-analysis of the deposited data

Results flagged for a closer look

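FAS in vehicle replicate 2, at 5.47, stood far above the other 3 vehicle tumours (4.67 to 4.76). The gap to the next tumour made up 0.893 of the range of the group, above the 95% critical value of Dixon's test for 4 samples. Of 18 groups of 4 examined for the 9 genes, 1 was past it, and chance gives about 1 in 20. This was also the vehicle tumour with the highest TNFSF10 (8.09), TNFRSF11B (6.16), CASP8 (7.36), CFLAR (9.15) and TNFRSF10D (2.88).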

How the results depend on the processing

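The difference of TNFSF10 stayed between 3.06 and 4.13 over 17 alternatives. With arrays centred on ribosomal protein genes 1800 genes rose and 701 fell, against 830 and 1054, and 2 members rose (FAS and CFLAR). The same 2 rose without the dimmest genes, where 1 also fell (FADD), with the robust trended prior, and under array weights. In these settings, in that order, calls were also more frequent over all genes, with 1069, 1080 and 1009 rises and 1169, 1218 and 1221 falls. With the replicate block 502 genes rose in place of 830, 0 members were called by limma, and FAS had an adjusted p of 0.0641. Deviations of same-numbered arrays from their group means correlated between -0.157 and 0.0345. The highest correlation between the groups was 0.231, for vehicle replicate 2 and doxycycline replicate 4. The labels do not say whether tumours of the same number are paired, and so few correlations cannot settle it. In that block, TNFRSF10B minus TNFRSF10A and CASP8 minus CFLAR had changes of -0.58 and -0.34, with an adjusted exact p of 0.188 each, where 4 pairs cannot go below 0.125. With quantile normalization on top they were -0.60 and -0.31, and without vehicle replicate 2 and doxycycline replicate 4 together -0.60 and -0.42 (3 against 3 arrays cannot go below 0.10). With 1 array left out, they ran from -0.67 to -0.50 and from -0.40 to -0.22, where no exact p can go below 0.0571. Leaving out 1 array gave 1252 to 1760 genes called, 503 to 727 rises, and 0 to 2 members that rose (2 without vehicle replicate 2). TNFRSF10D, which was never called, changed sign with quantile normalization (-0.0075) and ran from -0.053 to 0.13 with 1 array left out. TNFRSF11B ran from -0.47 to 0.054 with 1 array left out. Signal over background was not available here, which limits statements on dim genes such as TNFRSF10D.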
